A study of Mus musculus with 3 samples.

Results

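The long noncoding RNAs (lncRNAs) of imprinted gene domains were examined in YTHDF2 RNA immunoprecipitation sequencing (RIP-seq) of mouse embryonic stem cells (ESCs). The 8 genes were Meg3, Rian, Mirg, H19, Kcnq1ot1, Airn, Snhg14 and Peg13, each found by its symbol among the 49997 genes of the count table. They were taken by name, with no threshold on their counts. The study asked which transcripts YTHDF2 binds in DUX-activated ESCs, and its RIP-seq held 1 input library and 2 YTHDF2 IP libraries. All 3 libraries came from the E14 ESC line after 24 h of doxycycline (Dox). As the study describes it, its ESC system carries a Dox-inducible Dux transgene and a tdTomato reporter driven by the Mervl promoter, so the input shares the transgenes and the treatment with the IP. The labels give neither a clone number nor the share of cells that entered the state resembling the 2-cell (2C) embryo. Each value is a mean over cells in and out of that state, and in such bulk samples fewer cells of a type and less RNA per cell cannot be told apart. All 8 ESC markers and all 6 markers of the 2C-like state that were looked up were tested and expressed. In the input, the 3 markers of muscle and mesoderm summed to 1.67 CPM and the 5 of extraembryonic endoderm to 9.5. The 6 fibroblast markers summed to 33.9 and the 4 trophoblast markers to 83.8, of which Tfap2c made 83.6. No untreated library and no IP with a control antibody was used here, so the values compare the RNA recovered with YTHDF2 with the RNA of the input and not a Dox effect.

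Imprinted genes are transcribed mainly from the copy inherited from one parent. Most imprinted domains hold at least one lncRNA whose promoter lies at or near a control region methylated on one parental copy, and several of these lncRNAs stay in the nucleus and silence protein-coding neighbours on the same chromosome copy. YTHDF2 is a mainly cytoplasmic reader of N6-methyladenosine (m6A) that directs the transcripts it binds to decay.

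The members spanned a wide range of levels. Per kb of exon not shared with another gene, the input CPM (a count relative to the TMM-scaled library size) was 33.7 for Rian, 13.1 for Meg3 and 7.67 for Mirg. These 3 lie in 1 domain and were the most abundant members per length. The input CPM per kb was 1.76 for H19, 0.87 for Snhg14 and 0.7 for Peg13. It was 0.0388 for Airn and 0.0153 for Kcnq1ot1, which were the least abundant per length. The input has 1 library and so no spread, but the 95% exact Poisson intervals of neighbours in this order overlapped only for Snhg14 with Peg13 and for Airn with Kcnq1ot1. For Snhg14 and Peg13 they ran from 0.804 to 0.941 and from 0.579 to 0.84, and for Airn and Kcnq1ot1 from 0.008 to 0.113 and from 0.0111 to 0.0204. Such intervals cover counting error only, and are too narrow here because both mates of a read pair were counted.

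In the YTHDF2 IP the order differed. The CPM per kb was 31 ± 0.694 (SD, n = 2) for Rian, 11.4 ± 0.601 for Mirg and 8.2 ± 0.914 for Meg3. Mirg thus stood above Meg3 in both IP libraries and below it in the input. Peg13 followed at 2.3 ± 0.131, then H19 at 0.818 ± 0.158 and Snhg14 at 0.14 ± 0.0157, with no overlap between the IP values of these 3. Peg13 stood below H19 and Snhg14 in the input and above both in the IP. The mean IP level was 0.0251 for Airn and 0.0214 ± 0.00398 for Kcnq1ot1, a difference within counting error.

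**Figure D1:**
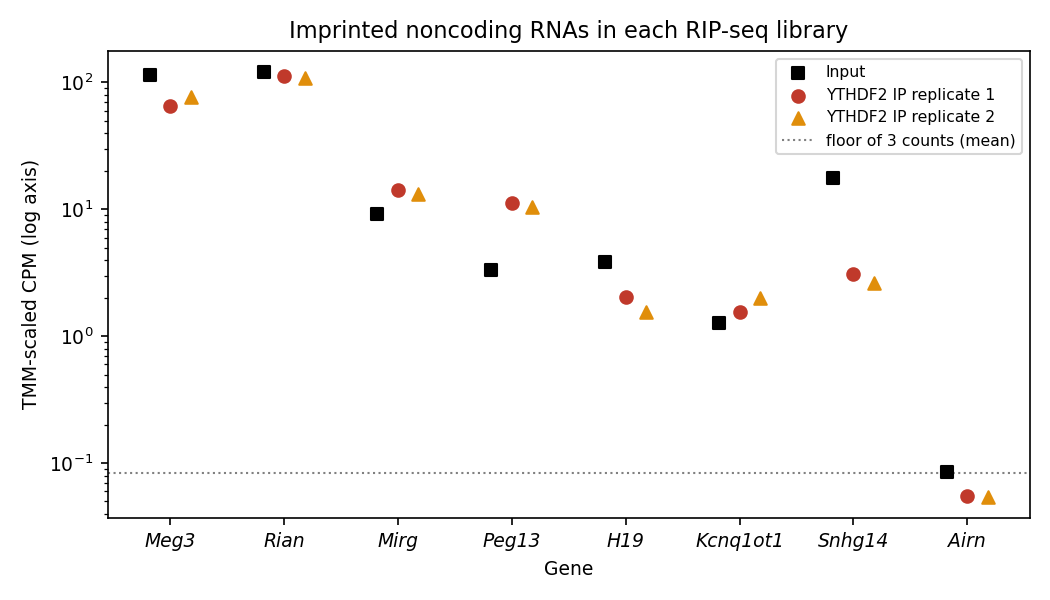
TMM-scaled CPM (log axis) of each of the 8 imprinted noncoding RNAs in the input and the 2 YTHDF2 IP libraries, 1 point per library, with the floor of 3 counts (mean over libraries) as a dotted line. Snhg14 stands at 17.8 CPM in the input against 3.08 and 2.62 in the IP, Peg13 at 3.31 against 11.3 and 10.4, and the 3 counts of Airn in the input and 2 in each IP library are at or under the floor.

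Of the 8 members, 7 had enough counts to be tested. A gene was called at an adjusted p under 0.05 and a fold change over 2, with edgeR's quasi-likelihood test adjusted over all 19601 genes tested. Peg13 alone among the members was enriched, against 15.0% of all genes tested and 17.3% of the 2169 lncRNA genes tested. Snhg14 and H19 were depleted, against 13.0% of all genes and 10.5% of lncRNA genes. At an adjusted p under 0.05 and any fold change, Peg13 and Mirg were higher in the IP, where 28.4% of all genes were higher. Meg3, H19 and Snhg14 were lower, where 28.9% of all genes were lower. With so few members these shares cannot be set apart from the background. The median log2 fold change (IP over input) of the 7 members was -0.12, beside 0.0063 over all genes and 0.28 over lncRNA genes. The 7 values ran from -2.64 to 1.71, while the quartiles of lncRNA genes were -0.91 and 1.5. Snhg14 and H19 lay below the lower quartile, Peg13 above the upper one, and the other 4 between them. Since the input has 1 library, the spread used by the test comes from the 2 IP libraries alone (1 residual degree of freedom), and the input is assumed to vary like them. Nothing in the labels says that the IP libraries came from separate cultures, so p-values measure only the spread between these samples, which may be technical.

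**Figure D2:**
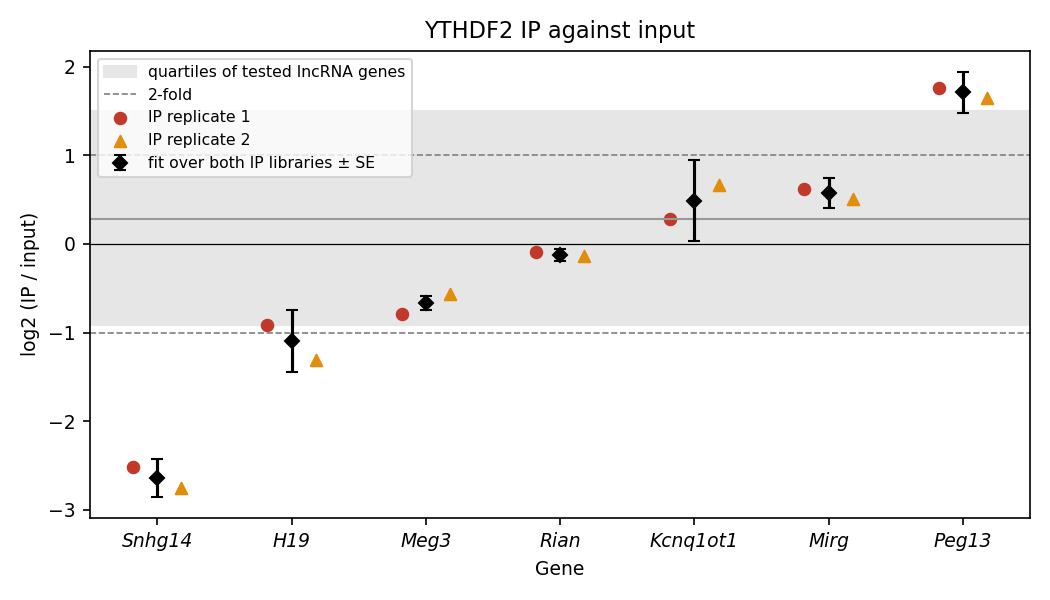
Log2 ratio of YTHDF2 IP to input for the 7 members tested, with each IP library as a point and the edgeR fit ± SE as a diamond, over the quartiles (grey band) and median (grey line) of the 2169 lncRNA genes tested. Peg13 lies above and Snhg14 and H19 below the band, and the 2 IP libraries fall on the same side of 0 for each of the 7 genes.

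The Dlk1-Dio3 domain of chromosome 12 is transcribed from the maternal copy as a long series of noncoding RNAs, of which Meg3, Rian and Mirg are the annotated parts in this order along the plus strand. In mouse ESCs their expression is widely used as a sign that the domain is still correctly imprinted. Meg3 (chr12:109540996-109571729, plus strand) is the first gene of the series and makes an RNA largely held in the nucleus. Meg3 reads numbered 4023 in the input against 2371 and 2817 in the IP (replicates 1 and 2, the order kept below), or 114, 65.7 and 76.9 CPM. Both IP libraries were below the input. The log2 fold change was -0.67 ± 0.08 (SE; edgeR adjusted p = 8.94e-09), a level 1.6-fold lower that did not reach the 2-fold threshold. Meg3 was the member on which the IP libraries were furthest apart for its depth, with a log2 ratio of replicate 1 to replicate 2 of -0.23 where the SD over 2634 genes of like count was 0.107. Its adjusted p was 0.426 when the dispersion was fixed at 0.1 to allow for an input that varies more. Of the exonic bases of Meg3, 31.6% lie in exons of Rtl1 on the opposite strand, and reads there were not counted for either gene.

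Rian (chr12:109603945-109661716, plus strand) hosts clusters of box C/D small nucleolar RNAs (snoRNAs) in its introns. It was the most abundant member, at 4267 input counts against 4076 and 4007 for the IP. In CPM these were 121, 113 and 109, so that both IP libraries were below the input by a small margin. The log2 fold change was -0.12 ± 0.068 (SE; edgeR adjusted p = 0.143), and no difference was called. With a trend on GC content removed, the value changed sign to 0.20, where the exons of Rian hold 44.2% GC against a lncRNA median of 48%.

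Mirg (chr12:109734981-109749458, plus strand) is the distal host transcript of a large cluster of microRNAs (miRNAs). Its count was 327 in the input against 513 and 483 in the IP, or 9.25, 14.2 and 13.2 CPM. Both IP libraries were above the input. The log2 fold change was 0.57 ± 0.17 (SE; edgeR adjusted p = 0.00466), a level 1.48-fold higher that was under the 2-fold threshold. The adjusted p rose to 0.0772 with DESeq2 and to 0.544 with the fixed dispersion, and the value was 0.20 with the GC trend removed, where Mirg is at 54.3% GC.

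Along the domain, the log2 fold change thus went from -0.67 at Meg3 through -0.12 at Rian to 0.57 at Mirg. With the GC trend removed the values were -0.80, 0.20 and 0.20, so that Rian and Mirg no longer differed in order. The count of Mirg was 0.0813 times that of Meg3 in the input and 0.216 and 0.171 times in the IP libraries, a ratio within each library that needs no scaling between libraries. The count of Meg3 was 0.943 times that of Rian in the input and 0.582 and 0.703 times in the IP libraries. Both ratios left the input value in the same direction in both IP libraries, and were not tested. The reads of each library thus held these 3 parts of 1 transcribed stretch in different proportions in input and IP. Among the protein-coding genes of the domain, which are transcribed from the paternal copy, Dlk1 encodes a Notch-related membrane protein and was not called (log2 fold change -0.34 ± 0.29, edgeR adjusted p = 0.334). Rtl1, a retrotransposon-derived gene antisense to Meg3, had 203, 64 and 78 counts (input first, then the IP) and was depleted (log2 fold change -1.55 ± 0.31, edgeR adjusted p = 4.3e-05). Strand was not used in counting, so plus-strand noncoding reads over Rtl1 exons outside those of Meg3 would count toward Rtl1. Dio3, an intronless gene for a thyroid hormone deiodinase, had 227, 780 and 759 counts and was enriched with a log2 fold change of 1.72 ± 0.16 (edgeR adjusted p = 1.12e-11).

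**Figure D3:**
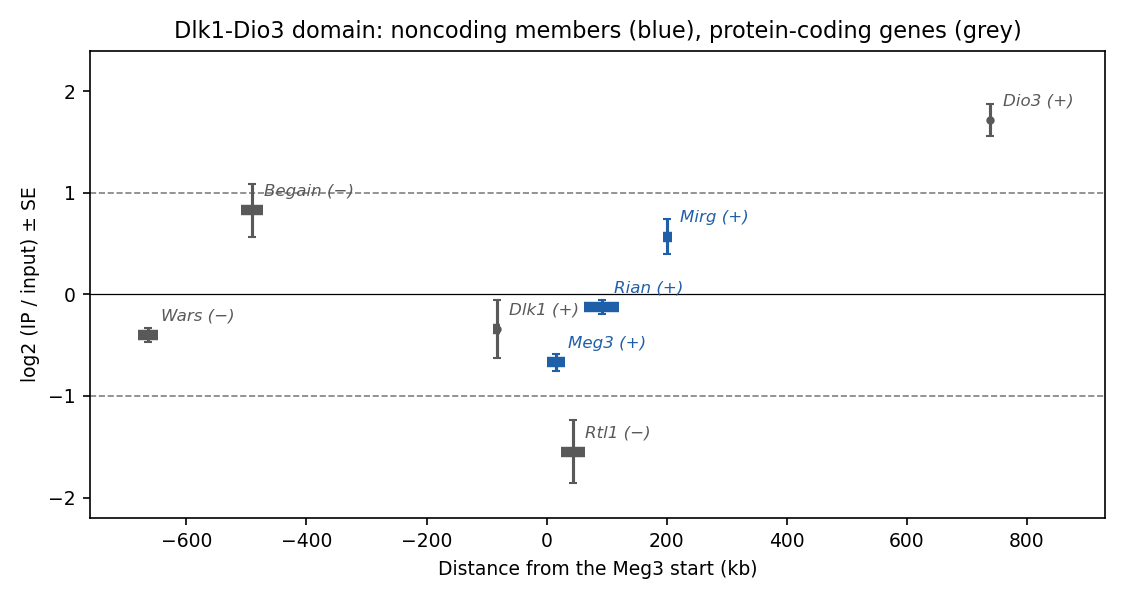
Log2 ratio of YTHDF2 IP to input (± SE) of the noncoding RNAs (blue) and listed protein-coding genes (grey) in and around the Dlk1-Dio3 domain. The x axis is the distance in kb from the Meg3 start, with the thick bar spanning the gene and the strand in parentheses. The noncoding members step up from -0.67 (Meg3) to -0.12 (Rian) and 0.57 (Mirg), although Rian and Mirg are both at 0.20 with the GC trend removed, and the 2 genes past the 2-fold lines are Rtl1 and Dio3.

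Of the small RNA genes inside these 3 members, 1 passed 10 counts in a library. The 11 snoRNA genes inside Rian summed to 147 input counts, against 65 and 80 for the IP. Almost all of these came from AF357359, named here after its values were seen, with 142, 60 and 80 counts and a log2 fold change of -1.06 ± 0.34 (edgeR adjusted p = 0.00831). Its annotation covers 30 bases. The 10 miRNA genes inside Mirg summed to 2, 1 and 2 counts, and the 2 inside Meg3 had none. The 2 hairpins in exons of Meg3 and the 1 in H19 are shown by their mature sequences (RefSeq, GRCm38.p6) with the seed, bases 2 to 8, in capitals, as examples of stretches that can leave the host RNA as a different product. Mirg also has exonic bases in the hairpins of Mir410, Mir412 and Mir369, which are not printed. None of the 5 shares its seed with another.
miR-1906, chr12:109544588-109544609 (plus strand): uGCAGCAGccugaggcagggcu
miR-770-5p, chr12:109563710-109563731 (plus strand): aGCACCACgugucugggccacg
miR-770-3p, chr12:109563744-109563765 (plus strand): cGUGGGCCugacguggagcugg
miR-675-5p, chr7:142577112-142577133 (minus strand): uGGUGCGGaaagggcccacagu
miR-675-3p, chr7:142577078-142577099 (minus strand): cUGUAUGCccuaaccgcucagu

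H19 (chr7:142575530-142578146, minus strand) is a short, spliced and maternally expressed lncRNA, exported to the cytoplasm and the host of miR-675 in its first exon. H19 counts were 137 for the input against 74 and 57 for the IP, or 3.87, 2.05 and 1.56 CPM. Both IP libraries lay below the input. The log2 fold change was -1.10 ± 0.35 (SE; edgeR adjusted p = 0.00723), a level 2.15-fold lower that was called depleted. The call was near the threshold. It was lost with DESeq2 (adjusted p = 0.127) and with the fixed dispersion (adjusted p = 0.174). Without IP replicate 2, the log2 ratio of the single remaining library was -0.91, under 2-fold, and no test was made. Igf2, the paternally expressed growth factor gene that shares enhancers with H19, had 40, 8 and 0 counts and was also depleted (edgeR adjusted p = 0.00783), at counts too low for a firm fold change. Because H19 is abundant in fibroblasts and extraembryonic endoderm, markers of both were summed. The 6 fibroblast markers summed to 33.9 CPM in the input and to 20.8 and 23.4 in the IP libraries. Of these, Thy1 had 994, 498 and 543 counts, Pdgfra 121, 189 and 243, Col1a1 75, 57 and 62, Col1a2 7, 4 and 6, Postn 1, 4 and 2, and Lum 2, 0 and 0. The list thus moved unevenly, with Thy1 lower and Pdgfra higher in the IP. The 5 endoderm markers summed to 9.5, 15.1 and 9.86 CPM. The part of such cells in the H19 values was not tested.

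Kcnq1ot1 and Airn are paternally expressed, mostly unspliced antisense RNAs that silence neighbours in cis and remain in the nucleus. Kcnq1ot1 (chr7:143213111-143296547, minus strand) is annotated as a single exon of 83437 bases that lies wholly inside the span of Kcnq1. Only 45 reads were counted for it in the input, against 56 and 74 in the IP, or 1.27, 1.55 and 2.02 CPM. Both IP libraries were above the input. The log2 fold change of 0.49 ± 0.46 (SE; edgeR adjusted p = 0.379) was little larger than its SE, and no call was made. At this depth a difference of this size was not detectable. With the GC trend removed, the value was 1.08, where Kcnq1ot1 is at 40.8% GC, the lowest of the members. Kcnq1 itself had 8, 4 and 5 counts and was not tested. Strand was not used in counting, so intron reads of Kcnq1 and reads of Kcnq1ot1 cannot be told apart.

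Airn (chr17:12741311-12859884, plus strand) runs antisense across the promoter of Igf2r. Airn had 3 input counts and 2 in each IP library, at or under the floor of 3 counts, and no fold change is given. A count of this size has a 95% exact Poisson interval of 0.619 to 8.77 in the input. The counting covered the 2188 exonic bases of Airn and not the 119 kb of its span, where an unspliced transcript would place most of its reads. Igf2r, the gene that Airn silences on the paternal copy, had 3568, 2082 and 2143 counts and was 1.74-fold lower in the IP (log2 fold change -0.80 ± 0.077, edgeR adjusted p = 1.44e-11), which was not past the 2-fold threshold. Mas1, whose span on the other strand holds 22.4% of the exonic bases of Airn, had 4, 0 and 0 counts and was not tested.

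Snhg14 (chr7:59272737-60450177, minus strand) is the very long paternally expressed transcript of the Prader-Willi and Angelman domain. It carries 172 merged exons, hosts the Snord115 and Snord116 snoRNAs, and in neurons extends antisense through Ube3a, which it silences. Snhg14 went from 628 input counts to 111 and 96 in the IP, or 17.8, 3.08 and 2.62 CPM. Both IP libraries were far below the input and close to each other. The log2 fold change was -2.64 ± 0.21 (SE; edgeR adjusted p = 5.7e-14), a 6.23-fold depletion and the largest difference among the members. Its log2 fold change was lower than that of all but 2.43% of genes tested and all but 8.21% of lncRNA genes tested. It was called depleted in each of the 7 alternatives that keep both IP libraries, and its log2 ratio was -2.52 and -2.75 in the single IP libraries. Of its exonic bases 15.7% are shared with exons of other genes, mostly Snrpn and Snurf, and reads there were left out for both genes. Of all its exonic bases, 11.8% lie within the span of Ube3a on the other strand, where the 2 transcripts cannot be told apart. Ube3a had 1592, 773 and 691 counts and was depleted 2.23-fold (log2 fold change -1.16 ± 0.11, edgeR adjusted p = 3.31e-11). The count of Snhg14 was 0.394 times that of Ube3a in the input and 0.144 and 0.139 times in the IP libraries. Snhg14 thus fell further than Ube3a within both IP libraries. Of the 206 snoRNA genes inside Snhg14, 4 had any count, with sums of 13, 2 and 0.

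Peg13 (chr15:72805602-72810324, minus strand) is an unspliced, paternally expressed lncRNA that lies in an intron of Trappc9, in the domain that also holds Kcnk9, Chrac1 and Ago2. Peg13 went from 117 input counts to 407 and 381 in the IP, or 3.31, 11.3 and 10.4 CPM. Both IP libraries were above the input, and they differed little from each other. The log2 fold change was 1.71 ± 0.23 (SE; edgeR adjusted p = 2.68e-08), a 3.27-fold enrichment that exceeded the log2 fold change of 78.6% of lncRNA genes and 90.5% of all genes tested. The call held in each of the 7 alternatives that keep both IP libraries, with the weakest at an adjusted p of 0.0409 under the fixed dispersion. Trappc9, a subunit of a vesicle tethering complex, is transcribed on the same strand, so intron reads of Trappc9 would count toward Peg13. The exons of Trappc9 had 1396, 769 and 799 counts and a log2 fold change of -0.87 ± 0.11 (edgeR adjusted p = 2.09e-08). Exon counts do not measure intron reads, and the part of intron reads in the Peg13 values was not tested. The count of Peg13 was 0.0838 times that of Trappc9 in the input and 0.529 and 0.477 times in the IP libraries. Chrac1, a histone-fold subunit of a chromatin remodeller, had 555, 5124 and 5058 counts and was enriched with a log2 fold change of 3.16 (edgeR adjusted p = 7.78e-27), while Ago2, an Argonaute, was not called at 0.095.

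In and around the 5 domains, 25 of 37 listed protein-coding genes were tested. Of these, 6 were enriched (Dio3, Tssc4, Ascl2, Ndn, Peg12 and Chrac1) and 3 were depleted (Rtl1, Igf2 and Ube3a), with a median log2 fold change of -0.27. Over all genes 15.0% were enriched and 13.0% depleted, and the 3 of 25 depleted is close to that share. Every domain list with more than 1 gene tested held genes on both sides of 0. Among the enriched neighbours, Dio3, Ndn and Peg12 consist of 1 exon, as does Peg13. The other 2 neighbours of 1 exon that were tested were not called, namely Magel2 at 0.66 ± 0.44 (edgeR adjusted p = 0.201) and Mkrn3 at -0.61 ± 0.28 (edgeR adjusted p = 0.0621). Over all protein-coding genes, the 510 of 1 exon had a median log2 fold change of 0.75 and the 14687 with more exons -0.0097. Over lncRNA genes the medians were 0.53 for the 100 of 1 exon and 0.28 for the 2064 with more. Of the 100, 27 were enriched and 18 depleted, against 349 and 210 of the 2064. Genes of 1 exon thus had the higher median in both classes, and of the 2 members of 1 exon, Peg13 was enriched and Kcnq1ot1 was not called. The lower quartile was -0.91 in both groups of lncRNA genes. Across 2164 lncRNA genes the Spearman correlation of exon number with log2 fold change was -0.036. The part of intron number in these values was not tested.

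**Figure D4:**
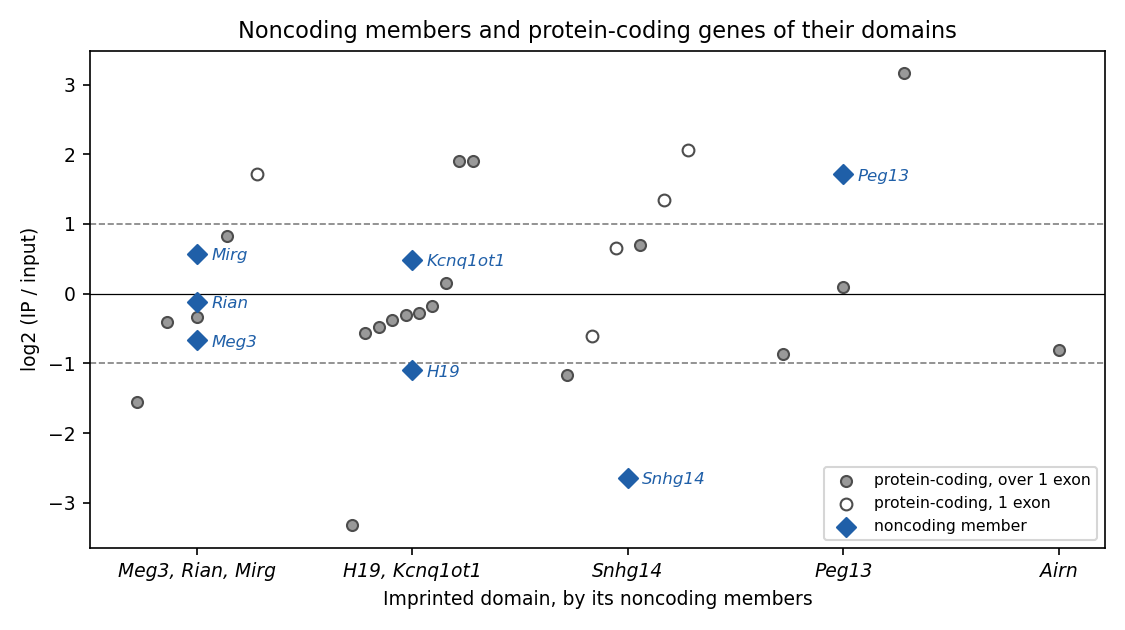
Log2 ratio of YTHDF2 IP to input of the noncoding members (blue diamonds) and listed protein-coding genes tested (circles) in and around each imprinted domain. Circles are open where the gene has 1 exon, and dashed lines are at 2-fold. Snhg14 lies below every protein-coding gene drawn with it, and Peg13 lies between Chrac1 (3.16) and Ago2 (0.095).

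The commonest form of the m6A consensus, GGACT in the DNA sequence (GGACU in RNA), was searched on the sense strand of the merged exons of each member, where copies of the motif cannot overlap each other. It occurred 5 times in Peg13, 6 times in H19 and 4 times in Snhg14, which are 1.06, 2.62 and 0.165 per kb. Snhg14 thus had the lowest density of the members, and H19 the highest. Meg3 had 15, Rian 4, Mirg 3, Kcnq1ot1 74 and Airn 1 copies, or 1.16, 1.12, 2.31, 0.887 and 0.457 per kb. The motif is common, since 82.4% of lncRNA genes with a computed value held it, at a median of 1.03 per kb. Among lncRNA genes of up to 1.5 times longer or shorter exonic length, 99.2% held it in the case of Peg13 with a median of 5 copies, 89.6% in the case of H19 with a median of 2, and all 29 in the case of Snhg14 with a median of 20. Peg13 was therefore at the usual number for its length, H19 above and Snhg14 below. Across 2164 lncRNA genes the Spearman correlation of motif density with log2 fold change was 0.049, and that of GC content was 0.20, both across genes that share the same libraries. Higher density therefore went with IP over input hardly at all, and the depleted H19 had a higher density than the enriched Peg13. The copies in the 3 called members are shown with up to 10 bases of exon on each side (GRCm38.p6, 5′ to 3′ along the RNA, motif in capitals), because they are the places in these RNAs where this form of the consensus could carry the mark that YTHDF2 reads. A match is a description and not a measured m6A site. The windows of Peg13, all in its single exon, read as follows.
Peg13, chr15:72810100-72810124 (minus strand): ccggcctcgtGGACTggcgttccta
Peg13, chr15:72810007-72810031 (minus strand): aagtctgagcGGACTcgcccagcag
Peg13, chr15:72809415-72809439 (minus strand): cgcttggctgGGACTtgggcgtatg
Peg13, chr15:72806929-72806953 (minus strand): gattgcagcaGGACTcccagcgtac
Peg13, chr15:72806812-72806836 (minus strand): gagcagtgagGGACTctctgggctc

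In H19, 5 of the 6 copies lie in the first exon, and 2 of them fall at the miR-675 hairpin.
H19, chr7:142578001-142578025 (minus strand): gaatgttgaaGGACTgaggggctag
H19, chr7:142577207-142577231 (minus strand): tgcaggtatcGGACTccagagggat
H19, chr7:142577123-142577147 (minus strand): tgcggcccagGGACTggtgcggaaa
H19, chr7:142577097-142577121 (minus strand): ggcccacagtGGACTtggtacactg
H19, chr7:142576829-142576853 (minus strand): cgaagagctcGGACTggagactagg
H19, chr7:142576275-142576299 (minus strand): ttgaatccggGGACTtctttaagtc

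In Snhg14 the copies lie in merged exons 6, 113, 171 and 172 of 172, counted from the 5′ end, and 2 windows stop short at an exon edge.
Snhg14, chr7:60071966-60071988 (minus strand): ctgtgattGGACTggggagactc
Snhg14, chr7:59458874-59458898 (minus strand): attctgtctaGGACTgggtcaatga
Snhg14, chr7:59276602-59276619 (minus strand): ttaattcgctGGACTcag
Snhg14, chr7:59273314-59273338 (minus strand): tcatgaaataGGACTggctatatat

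**Figure D5:**
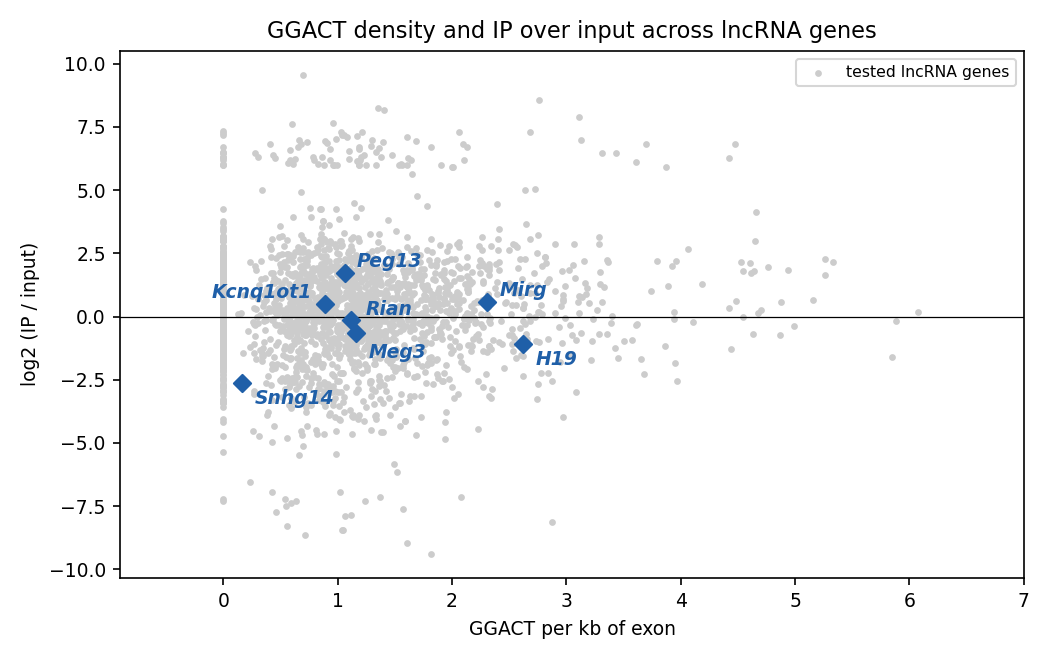
GGACT per kb of exon against the log2 ratio of YTHDF2 IP to input for 2162 lncRNA genes tested (grey; 2 more lie beyond the axis) and the 7 members tested (blue diamonds). Snhg14 has the lowest density and the lowest ratio of the 7 members, H19 and Mirg have like densities on opposite sides of 0, and many of the grey points past 5 in either direction have no count in one of the groups.

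Noncoding RNAs of related kinds were set beside the members. Of 6 other imprinted noncoding RNAs listed, 5 were matched by name (Copg2os2 was not analysed here) and 1 was tested, namely Gnasas1 (also named Nespas), the antisense RNA of the Gnas domain, which had 101, 294 and 224 counts and was enriched with a log2 fold change of 1.32 ± 0.28 (edgeR adjusted p = 8.41e-05). Of 4 RNAs of the X inactivation centre, Xist had 2, 0 and 0 counts, Ftx was depleted at -1.67 (edgeR adjusted p = 0.000645), and Tsix, at 0.61, was not called (edgeR adjusted p = 0.0764). Jpx had 4, 22 and 13 counts and was not called either, at 2.06 (edgeR adjusted p = 0.181). Among 5 noncoding RNAs listed here as nuclear, 4 were depleted and the median was -1.21. Malat1 was at -3.15 and Neat1 at -1.21. Firre, at -1.01, was at the edge of the 2-fold threshold, and Miat had only 50, 0 and 12 counts. Tug1, at 0.75, was not called. Among 8 noncoding RNAs known in the cytoplasm, of which Norad and Snhg8 have 1 exon in this annotation and the rest are spliced, 1 was enriched (Norad, 1.31), 2 were depleted (Gas5 and Snhg3), and the median was -0.25. Over all lncRNA genes tested, 17.3% were enriched and 10.5% depleted, and with lists of this size the shares are a description. Snhg14 lay below both medians, Meg3 and H19 lay between them, and Rian, Kcnq1ot1, Mirg and Peg13 lay above both. Of these, Kcnq1ot1 is known as a nuclear RNA, and its value of 0.49 ± 0.46 was not called. Peg13 lay above every RNA of either group.

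The pattern of the 2 most abundant members was set beside that of other genes of like abundance, by the distance in the log2 ratios of the 2 IP libraries. The nearest to Rian among 3615 genes were Nelfb, Atp5j2 and Kdm3b, at distances of 0.00332 to 0.0122. The nearest to Meg3 among 4214 genes were Pmpcb, Fxyd6 and Vapb, at 0.0347 to 0.0448. All 6 are protein-coding, and the likeness rests on 2 libraries.

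The libraries held from 35259827 to 36986994 counts, and 23646 to 24489 genes had at least 1 count. The IP libraries differed on each of the 7 members tested by less than the SD over other genes of like depth, except for Meg3. The log2 ratios of replicate 1 to replicate 2 were between -0.38 and 0.39, with the widest gaps at H19 and Kcnq1ot1, which had the fewest counts.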

How the data were processed

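The RIP-seq data comprised 1 input and 2 YTHDF2 IP libraries of Dox-treated (24 h) E14 mouse ESCs, assigned to groups by title. Per the methods of the study, YTHDF2 was precipitated from a cleared lysate, and no detergent is listed for its buffer. The labels describe Trizol-extracted RNA used in the IP. The study calls the RNA compared with the IP total RNA, and whether it was taken before or after the lysate was cleared was not given in the sources used here. The deposited values are raw counts per gene. Per the file headers, the authors made them by running featureCounts 2.0.3 on RefSeq exons of mm10, in paired-end mode with each mate counted on its own and without strand. By the defaults of that tool, reads over several genes or places were left out. The submitters' processing notes name fastp 0.19.4, HISAT2 2.2.1 and DESeq2 1.40.2. Even numbers made up 61.4% to 64.7% of counts between 1 and 100, as counting both mates gives.

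The analysis used edgeR 4.0.16 under R 4.3.3 (filterByExpr, TMM with factors of 0.957, 1.02 and 1.02, robust dispersion, quasi-likelihood F test, Benjamini-Hochberg over 19601 genes). The SE is the size of the log2 fold change over the square root of F. The script was tested on simulated data. Log2 ratios of single libraries add 0.5 to each count. The members and lists were chosen with earlier results of these data known. All 8 members were named, with protein-coding neighbours named where called or overlapping a member, small RNA genes past 10 counts, all of 4 noncoding lists by count, and the 3 genes nearest to each of the 2 most abundant members. Dlk1, Ago2, Magel2, Mkrn3, marker genes and single genes of the noncoding lists were named beyond this rule, with their values known. Coordinates are 1-based on GRCm38.p6, the assembly of mm10, to which all 49997 symbols matched. Sequences came from that genome and from RefSeq. Alternatives were other scaling (DESeq2 size factors, library totals), no filter, DESeq2 1.42.0, a fixed dispersion of 0.1, halved counts, a GC trend removed with p-values kept, and each IP library left out.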

Additional observations from a re-analysis of the deposited data

How the results depend on the processing

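No paired analysis was possible because there is 1 input sample and its title gives it no number to match. Peg13 stayed enriched and Snhg14 depleted under all 7 alternatives that keep both IP libraries. The count of members depleted was 1 in place of 2 with DESeq2 and with a fixed dispersion of 0.1, where H19 is the gene that drops out. No test was made with an IP library left out. The log2 ratio of H19 was then -1.31 without replicate 1 and -0.91 without replicate 2. H19 had a log2 fold change of -1.10 and an adjusted p of 0.127 with DESeq2 and 0.174 with the fixed dispersion. The fixed dispersion left 1577 genes enriched and 1531 depleted, in place of 2936 and 2543. The median of the members went from -0.12 to -0.022 with library totals and to 0.20 with the GC trend removed, which also turned Rian to 0.20. The GC alternative shifted the median of all genes by -0.11. The 6 members tested other than Rian kept their direction under the 9 alternatives run. The cause of these changes was not tested. Depth limits Airn, with 2 or 3 counts a library, and Kcnq1ot1 and H19, with 45 to 137.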
